A study of Zea mays with 18 samples.

Results

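The cytosolic glyceraldehyde-3-phosphate dehydrogenase (GAPDH) genes of maize measured on these arrays were GPC1 (LOC542367), gpc3 (LOC542333) and gpc4 (LOC100037774). They were chosen by gene symbol or synonym, with their o2 over wild type values in these samples already known, so those values are given as a description without a test. GPC1 and gpc4 were each represented by 1 cDNA clone and gpc3 by 2, which makes 3 genes of 370 named ones and 4 clones of 489 named ones, among 7466 clones in all. Of other genes with GAPDH-like synonyms in the gene table, gpc2 (LOC542718) and GAPCP (LOC100282981) were named on none of the clones used here. Whether GAPCP encodes a cytosolic enzyme was not looked at.

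The samples were immature endosperm of o2 mutant and wild-type maize (Zea mays), collected 14 days after pollination and compared on 2-colour cDNA arrays of polyA RNA. The comparisons were o2 against wild type in the inbred lines B46 and M14 and in pools of 8 lines (mixed), namely A619, B14A, B45, B46, B57, B66, B73 and M14. Each had 3 sample pairs that the design text calls independent. These were labelled both ways round on 2 arrays, so that 18 arrays gave 9 replicates. The labels name neither the o2 allele nor the number of plants per sample, and the spread between replicates may in part be technical.

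GAPDH oxidises glyceraldehyde-3-phosphate in glycolysis and reduces NAD in the same step, and the GPC genes encode the cytosolic form of the enzyme. In maize seedlings, gpc3 is known as a gene whose transcript accumulates when oxygen is lacking. In the filling endosperm, glycolysis draws on the same hexose phosphates as starch synthesis, and o2 encodes an endosperm bZIP transcription factor that activates zein genes.

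The deposited values were signed log ratios whose base is not stated, so changes are given in log units. Their direction is likely and not settled. Since the design text puts wild type before o2, each value was taken as wild type over o2 and its sign turned, so that a positive value means more transcript in o2. If the table ran o2 over wild type, every sign would turn. If it held Cy5 over Cy3 on every array, averaging a dye swap would remove an o2 effect and keep a dye effect. The genes z1C1_12 (a zein gene) and pdk1 (pyruvate orthophosphate dikinase), known o2 targets that were also looked at in choosing the reading, had the same sign on both arrays in 9 of 9 dye swaps. They averaged -2.25 (z1C1_12) and -1.07 (pdk1) log units as read here and -0.084 and -0.12 when turned by the labelled dyes. The o2 transcript itself averaged -0.42 and was below 0 in 9 of 9 replicates, with the same sign on both arrays in 5 of 9. Over all clones, r between dye-swap partners was below 0 in 9 of 9 replicates (r between -0.35 and -0.018). Among arrays of 1 dye orientation, 25 of 72 pairs correlated below 0, the lowest being M14 replicate 1 and mixed replicate 1 with wild type on Cy5 (r = -0.34). None of the 30 pairs within B46 and M14 was among these 25 (r between 0.028 and 0.44).

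Mixed replicates 1 and 2 went against their dye labels. Each of their arrays with wild type on Cy5 correlated below 0 with 6 of 6 B46 and M14 arrays of that orientation and above 0 with 6 of 6 of the opposite one (r up to 0.32 and 0.31). Of their arrays with o2 on Cy5, that of replicate 2 did the same, and that of replicate 1 was below 0 with 3 of 6 of its own orientation and above 0 with 6 of 6 of the opposite one. The values as read here do not use the dye labels. Those that do are given both ways, with these labels kept and exchanged, an alternative chosen after seeing the data.

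Ratios hold no levels, so the tissue could not be checked by the level of its markers. Of 11 clones of transfer-layer, aleurone, embryo and green-tissue markers, 1 (betl2, of the basal transfer layer) was called lower in the average of the 3 comparisons and 0 in any single one, while 6.91% of all clones were called in the average. The 8 clones of aleurone, embryo and green tissue averaged between -0.28 and 0.18 log units. The 5 clones of starchy endosperm markers went both ways: the zein genes z1C1_12 and dzs18 were below 0 in 9 of 9 replicates, and the 3 clones of wx1 (the granule-bound starch synthase) averaged 0.29, 0.26 and 0.018, above 0 in 8, 8 and 4 of 9. Of these, z1C1_12 passed in B46 and in the average. Whether shifts in cell types have a part in the GAPDH values was not tested, and fewer cells of a type and less RNA per cell cannot be told apart in such samples.

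All 4 GAPDH clones were above 0 in every replicate of B46 and of the mixed lines, while M14 gave values on both sides of 0. In B46, gpc4 had the highest mean and gpc3 and GPC1 lay close together. In M14, gpc3 and gpc4 were above 0 on average, and GPC1 was not, but single replicates moved these means. Without M14 replicate 2 they were 0.18 for gpc3, 0.22 for gpc4 and 0.018 for GPC1, and without M14 replicate 3 they were 0.60, 0.66 and -0.071. Clones above 0 in all 3 replicates made up 21.9% of all clones in B46, 17.9% in M14 and 17.6% for the mixed lines.

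GPC1 stood at 0.62, 0.77 and 0.59 log units in B46 replicates 1, 2 and 3. In M14 it stood at 0.087, -0.23 and -0.052, and in the mixed lines at 0.24, 0.11 and 0.51. The 3 comparisons did not overlap in GPC1: every B46 replicate was above every mixed one, and every mixed replicate was above every M14 one. Over all clones, 6.79% had every B46 replicate above every mixed one. All M14 replicates lay below all mixed ones in 5.81%, and all B46 replicates above all M14 ones in 8.28%. Its means were 0.66 ± 0.095 in B46, -0.065 ± 0.16 in M14 and, for the mixed lines, 0.29 ± 0.20 (SD over 3 replicates). The B46 mean corresponds to a 1.58-fold higher level in o2 if the log is to base 2 and to a 1.94-fold higher level if it is natural.

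The 2 gpc3 clones are reported apart, because they are separate spots of 1 gene. The clone on row 491 had 0.80, 1.08 and 0.58 log units in B46, 0.46, 0.91 and 0.002 in M14, and 0.75, 0.60 and 0.59 in the mixed lines. The clone on row 4583 had 0.36, 0.85 and 0.44 in B46, 0.27, 0.77 and -0.018 in M14, and 0.55, 0.66 and 0.37 in the mixed lines. Both clones peaked in replicate 2 of B46 and of M14, and both were near 0 in M14 replicate 3. The comparisons overlapped in both clones.

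Over the 9 replicates the gpc3 clones followed each other with r = 0.89, and both values of each point come from the same arrays. The clone on row 491 was the higher one in 8 of 9 replicates, by 0.17 ± 0.14 log units on average (SD, n = 9). Averaged over its clones, gpc3 had 0.69 ± 0.24 in B46, 0.40 ± 0.42 in M14 and, for the mixed lines, 0.59 ± 0.092 (SD over 3 replicates). The B46 mean corresponds to a fold of 1.61 on base 2 and 1.99 on the natural base.

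The gpc4 clone had 0.94, 1.20 and 0.67 log units in B46, 0.42, 0.90 and 0.017 in M14, and 0.54, 0.54 and 0.50 in the mixed lines. Every B46 replicate was above every mixed one, as in 6.79% of all clones, and M14 spanned the range from near 0 to the level of B46. Its means were 0.93 ± 0.26 in B46, 0.44 ± 0.44 in M14 and, for the mixed lines, 0.53 ± 0.025 (SD over 3 replicates). The B46 mean corresponds to a fold of 1.91 on base 2 and 2.55 on the natural base.

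**Figure D1:**
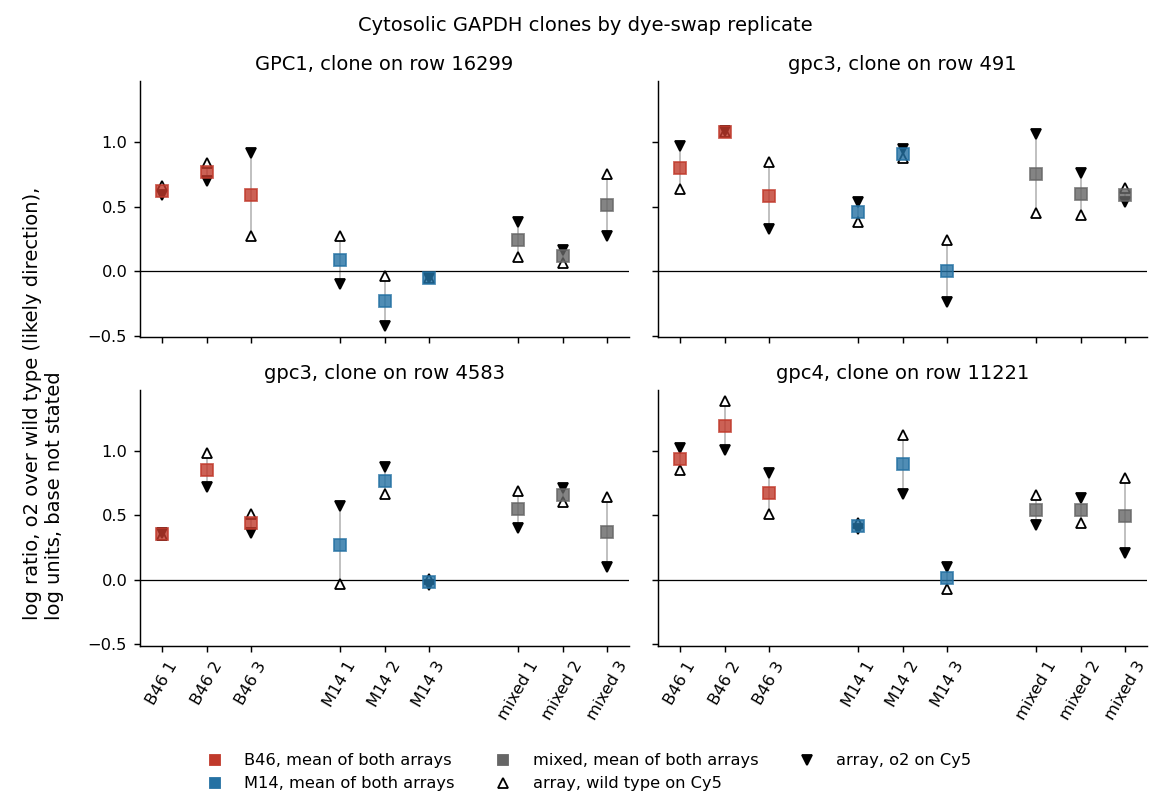
Log ratio of o2 over wild type (likely direction, log units, vertical axis) of each GAPDH clone in the 3 dye-swap replicates of B46, M14 and the mixed lines, with squares for the mean of both arrays and triangles for each array. All B46 and mixed points lie above 0, and in M14 replicate 3 the means of the 4 clones lie between -0.052 and 0.017.

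The replicates differed in how widely all clones spread, and M14 replicate 3 and mixed replicate 3 were the narrowest, each with a median absolute deviation of 0.13 log units against 0.20 to 0.29 in the others. The same narrow spread came with different GAPDH values. In mixed replicate 3 the 4 clones stood between the 94.3 and 97.6 percentiles of all clones, and in M14 replicate 3 between the 40.1 and 55.4 percentiles. In B46 they ranged from the 81.2 to the 96.8 percentile over the 3 replicates. M14 replicate 2 held the widest range among the 4 clones, with GPC1 at the 28.5 percentile and the highest gpc3 clone at the 95.8 percentile.

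The arrays of a dye swap gave a value each. Read as o2 over wild type on both arrays, the GAPDH clones had the same sign on both in 31 of 36 cases (86.1%), against 45.5% over all clones. GPC1, the gpc3 clone on row 491 and gpc4 did so in 8 of 9 replicates each, and the gpc3 clone on row 4583 in 7. The median size of the dye-swap mean was 0.54 log units for the GAPDH clones and 0.21 for all clones. The GAPDH clones were chosen with these means known, and a larger mean makes the same sign on both arrays more likely. Nothing is therefore read from the contrast in sign with all clones. The 36 cases repeat the same clones over the replicates and are not separate. The median size of the dye-dependent portion, measured as the distance of either array from the dye-swap mean, was 0.12 for the GAPDH clones and 0.23 for all clones.

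**Figure D2:**
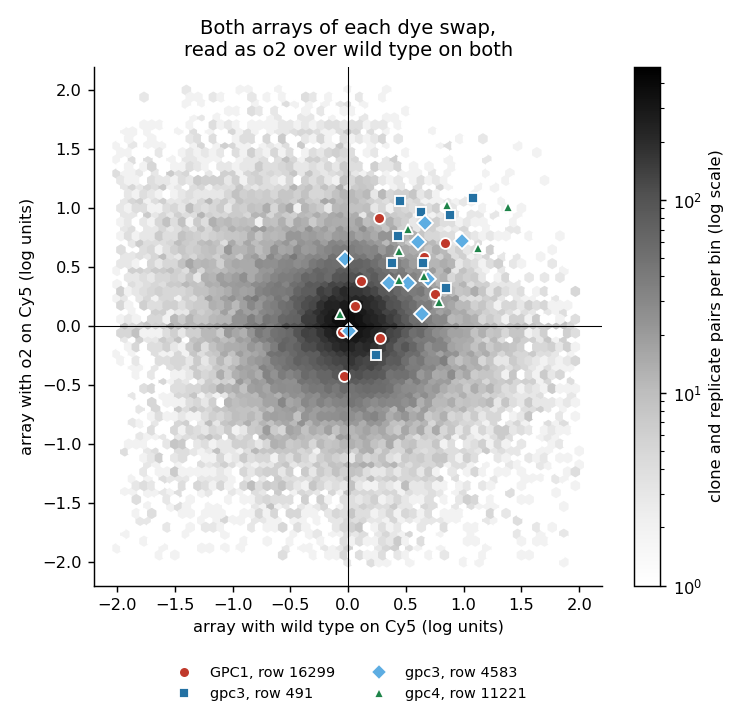
Value of each clone and replicate on the array with wild type on Cy5 (horizontal axis) and on the array with o2 on Cy5 (vertical axis), in log units and both read as o2 over wild type, with all clones as shading and the GAPDH clones as symbols. Pairs beyond 2 log units are not drawn, and 31 of the 36 GAPDH pairs have the same sign on both arrays.

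Turned by the labelled dyes, as a table of Cy5 over Cy3 would need, the values came near 0. GPC1 then averaged -0.074 in B46, 0.13 in M14 and 0.017 for the mixed lines. For gpc3 the averages were 0.048, -0.041 and -0.009, and for gpc4 -0.018, 0.056 and 0.10. With the labels of mixed replicates 1 and 2 exchanged, the averages for the mixed lines were 0.14 (GPC1), 0.12 (gpc3) and 0.092 (gpc4).

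In the fit of limma across all clones, 3 of the 4 GAPDH clones were called higher in o2 in B46, where 4.57% of all clones were called and 0.911% were called higher. The clone not called there was gpc3 on row 4583. In the average of the 3 comparisons 4 of 4 were called, where 6.91% of all clones were called and 1.97% were called higher. Because the clones were chosen with these values known, the counts describe them and nothing is read from the shares. For M14 and for the mixed lines 0.0% of clones passed, while 12.3% in M14, 9.28% in the mixed lines and 18.4% in B46 had an unadjusted p under 0.05. The count in B46 fell to 0 of 4 without any 1 of the 3 B46 replicates, was 1 of 4 without mixed replicate 3, with the replicate number as a block, with a variance trend and robust moderation, or on the arrays with wild type on Cy5, and was 0 of 4 when B46 was fitted alone. The count in the average was 2 of 4 without B46 replicate 2, M14 replicate 1, mixed replicate 1 or mixed replicate 3, 1 of 4 on the arrays with o2 on Cy5, and 0 of 4 with the trend and robust moderation. Turned by the labelled dyes, 0 of 4 were called in any comparison. Clones above 0 in all 9 replicates made up 2.75% of all clones, and the gpc3 clone on row 491 and gpc4 were among them.

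Whether the GAPDH genes responded differently between the backgrounds was tested as a difference between comparisons. The clones were chosen with the values of each comparison known, and the differences use the same arrays. The tests of these differences are therefore not free of that choice. In GPC1, B46 exceeded M14 by 0.73 ± 0.15 log units (SE, 95% confidence interval 0.38 to 1.07). This difference had an unadjusted p of 0.00143 and a Benjamini-Hochberg adjusted p of 0.389 over all 7466 clones in limma, and so did not pass. All B46 replicates lay above all M14 ones in 8.28% of clones.

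For GPC1, B46 exceeded the mixed lines by 0.37 log units (95% confidence interval 0.026 to 0.72, limma adjusted p = 0.902), and 6.79% of all clones had all B46 replicates above all mixed ones. M14 minus mixed was -0.36 (-0.70 to -0.009, limma adjusted p = 0.86), and 5.81% of all clones had all M14 replicates below all mixed ones. Neither difference passed over all clones, though the replicates did not overlap in either.

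The other clones had wide intervals. For gpc4, B46 minus M14 was 0.49 log units (95% confidence interval -0.058 to 1.04, limma adjusted p = 0.541) and B46 minus mixed was 0.41 (-0.14 to 0.96, adjusted p = 0.907). For the gpc3 clone on row 491, B46 minus M14 was 0.36 (-0.20 to 0.93, limma adjusted p = 0.628). For the one on row 4583 it was 0.21 (-0.33 to 0.75, limma adjusted p = 0.776). These B46 minus M14 values moved with single replicates. They were 0.59 (row 491), 0.42 (row 4583) and 0.72 (gpc4) without M14 replicate 2, and 0.14, 0.030 and 0.28 without M14 replicate 3. Without B46 replicate 2 they were 0.24, 0.058 and 0.36. Between M14 and the mixed lines, the gpc3 and gpc4 clones differed by -0.19 to -0.083 log units, with limma adjusted p between 0.915 and 0.977. Over all clones, 0 passed the adjusted threshold for any of these differences, while 733 (9.82%) had an unadjusted p under 0.05 between B46 and M14, 394 (5.28%) between B46 and mixed, and 376 (5.04%) between M14 and mixed.

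**Figure D3:**
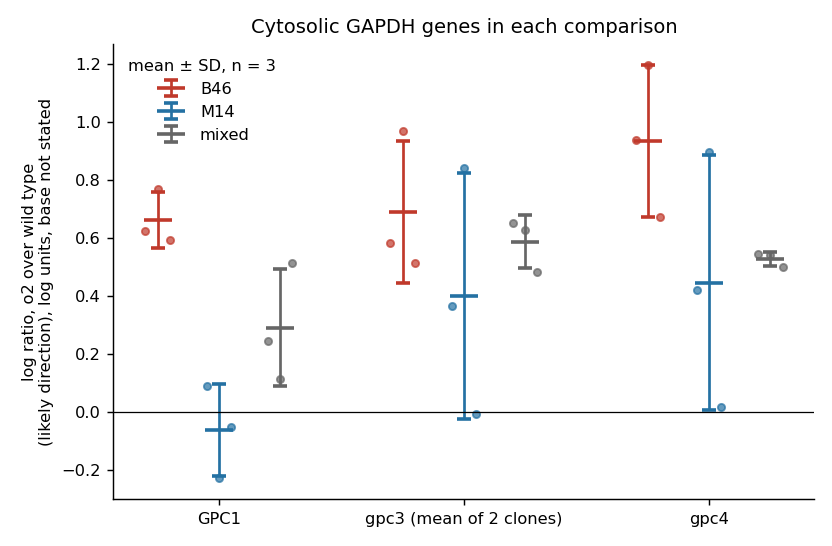
Mean log ratio of o2 over wild type (likely direction, log units, vertical axis) of GPC1, gpc3 (mean of its 2 clones) and gpc4 in B46, M14 and the mixed lines, with SD bars over 3 replicates. The mean of GPC1 is -0.065 in M14 and 0.66 in B46, while gpc3 and gpc4 are above 0 in all 3 comparisons with wide bars in M14.

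The genes were compared within each replicate, since both values then come from the same arrays. Over the 9 replicates, gpc4 exceeded GPC1 by 0.34 ± 0.34 log units (SD, n = 9) and was the higher one in 8 of 9. An exact two-sided sign-flip permutation test gave p = 0.00781, with 0.00391 the smallest it can give, and 0.0234 after adjustment over the 3 pairs of genes. The genes were chosen with these values known, so the p-values of the 3 pairs are not independent of that choice. The test also took the 9 replicates as separate, though they fall into 3 comparisons. GPC1 and gpc4 had 1 clone each, and the 2 clones of gpc3 differed by 0.17 ± 0.14, in 1 direction in 8 of 9 replicates. A difference between genes and one between spots can therefore not be told apart here. The mean difference was 0.27 in B46, 0.51 in M14 and 0.24 for the mixed lines. In M14 replicates 1, 2 and 3 it was 0.33, 1.125 and 0.069, so the M14 mean rested largely on replicate 2. Without M14 replicate 2 the difference over the remaining replicates was 0.24 (exact permutation, adjusted p = 0.0469). On the arrays with o2 on Cy5 alone the difference was 0.32 and no longer passed (exact permutation, adjusted p = 0.0938), and turned by the labelled dyes it was 0.024 (adjusted p = 0.777). With the labels of mixed replicates 1 and 2 exchanged these were 0.36 (exact permutation, adjusted p = 0.0586) and -0.022 (adjusted p = 0.965).

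Between gpc3 and GPC1 the difference was 0.26 ± 0.37 log units (SD, n = 9), above 0 in 6 of 9 replicates (exact sign-flip permutation p = 0.0508, adjusted p = 0.0762). It was 0.025 in B46, 0.46 in M14 and 0.30 for the mixed lines. In M14 replicates 1, 2 and 3 it was 0.28, 1.07 and 0.044, so this M14 mean also rested largely on replicate 2. Between gpc4 and gpc3 it was 0.078 ± 0.15, above 0 in 7 of 9 replicates (exact sign-flip permutation p = 0.164). That difference stood at 0.25 in B46, 0.045 in M14 and -0.059 for the mixed lines. Neither pair passed. Transcripts of closely related genes can bind each other's cDNA clones, and the sequences of the clones were not used here, so how far the 3 genes are separate measurements was not tested.

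The values of gpc3 and gpc4 moved together over the 9 replicates, with Pearson r = 0.91 (exact permutation p = 0.00165, adjusted over the 3 pairs 0.00494) and Spearman rho = 0.82 (exact permutation p = 0.0108, adjusted p = 0.0323). The permutations, here and for the other pairs, took all 9 replicates as exchangeable. The replicates fall into 3 comparisons and the genes share arrays, which these p-values ignore. Without the 2 replicates farthest from the median of gpc3, M14 replicate 3 and B46 replicate 2, r was 0.63 (exact permutation p = 0.132), so the relation rests in part on them. Within comparisons, as deviations from each comparison's mean, r was 0.97. That value rests largely on M14, where the SD was 0.42 (gpc3) and 0.44 (gpc4). The SD was 0.24 and 0.26 in B46 and 0.092 and 0.025 in the mixed lines. Read from the arrays with o2 on Cy5 alone r was 0.65 (adjusted exact permutation p = 0.16), and turned by the labelled dyes it was 0.06. With the labels of mixed replicates 1 and 2 exchanged these were 0.71 (adjusted exact permutation p = 0.0821) and -0.034.

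GPC1 did not pass with either of the others. Between GPC1 and gpc4, r was 0.52 (exact permutation p = 0.15, adjusted p = 0.226) and rho 0.60 (exact permutation p = 0.0968). Within comparisons that r was -0.16, and without B46 replicate 2 and M14 replicate 2 the pooled r was 0.81 (exact permutation p = 0.00655). Leaving out M14 replicate 2 alone gave r = 0.87 (adjusted exact permutation p = 0.00424), so this pair turned on 1 replicate. That replicate was singled out after seeing the data, as the one whose omission raised r most, so nothing is read from this p. In M14 replicate 2, GPC1 was at -0.23 while gpc4 was at 0.90.

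Between GPC1 and gpc3, r was 0.32 (exact permutation p = 0.421) and rho 0.28 (exact permutation p = 0.463). Without B46 replicate 2 and M14 replicate 2 it was 0.55 (exact permutation p = 0.196), and within comparisons -0.26. Leaving out M14 replicate 2 alone gave r = 0.70 (adjusted exact permutation p = 0.0334), again an omission singled out after seeing the data.

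**Figure D4:**
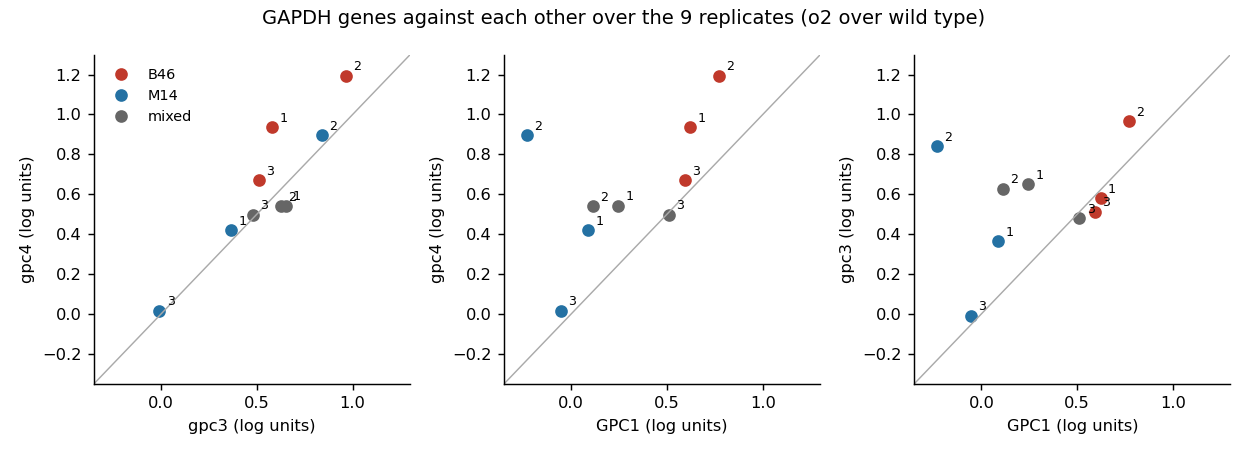
Log ratios of o2 over wild type (log units) of the GAPDH genes plotted against each other, 1 point per dye-swap replicate labelled with its number, with a line where both genes are equal. In the gpc3 and gpc4 panel the points rise together (r = 0.91), and M14 replicate 2 lies far above the line in both panels with GPC1.

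GAPDH acts in the middle of glycolysis, and the clones of 7 other genes of glycolysis and fermentation were set beside it. These were phi1 (glucose-6-phosphate isomerase), frk1 (fructokinase), eno1 (enolase, a later step of glycolysis), pdc1 and pdc3 (pyruvate decarboxylase), and adh1 and adh2 (alcohol dehydrogenase). Of their 12 clones, 0 passed in either direction in limma in B46, M14, the mixed lines or the average. The lowest limma adjusted p values were, in that order, 0.0536, 0.324, 0.522 and 0.0898. Among all clones, 6.91% were called in the average and 4.57% for B46, while M14 and mixed each had 0.0%. At such shares a count of 0 of 12 does not set these clones apart from all clones, and nothing is read from it. In B46, 8 of 12 were above 0, with a median of 0.15 log units against 0.007 for all clones. In M14, 3 of 12 were above 0 (median -0.10, all clones -0.002), and in the mixed lines 6 of 12 (median 0.023, all clones -0.013).

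Single enzymes of the list differed among themselves. The frk1 clone had 0.28, 0.32 and 0.27 log units in B46, -0.027, -0.13 and -0.12 in M14, and 0.18, 0.004 and 0.13 in the mixed lines. The pdc3 clone had 1.41, 1.34 and 0.40 in B46, 0.41, -0.34 and -0.43 in M14, and 0.42, 0.56 and 0.11 in the mixed lines. B46 was thus the highest of the 3 comparisons in both clones on average, with overlap in pdc3. The frk1 replicates did not overlap between comparisons and stood in the same order as in GPC1. Over all clones, 8.28% had every B46 replicate above every M14 one and 6.79% every B46 replicate above every mixed one. All M14 replicates lay below all mixed ones in 5.81%. The frk1 clone is 1 of the 12 looked at, and its difference between B46 and M14 did not pass (limma adjusted p = 0.389).

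The 4 eno1 clones disagreed: in B46 their means were 0.35, 0.036, -0.043 and 0.32 log units, on rows 271, 355, 1987 and 10041. The phi1 clones and pdc1 stayed within 0.30 of 0 in every replicate. Of the fermentation genes, adh2 on row 3915 had 0.37, 0.41 and 0.42 in B46, -0.70, -2.66 and -0.19 in M14, and 0.16, -0.29 and 0.27 in the mixed lines. Neither adh2 clone passed the threshold in any comparison, nor did adh1. B46 minus M14 was above 0 in 10 of the 12 clones and in 48.9% of all clones. The median was 0.27 against -0.011 over all clones, and 0 of the 12 passed. These 12 clones stand for 7 genes on the same arrays and are not separate observations.

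**Figure D5:**
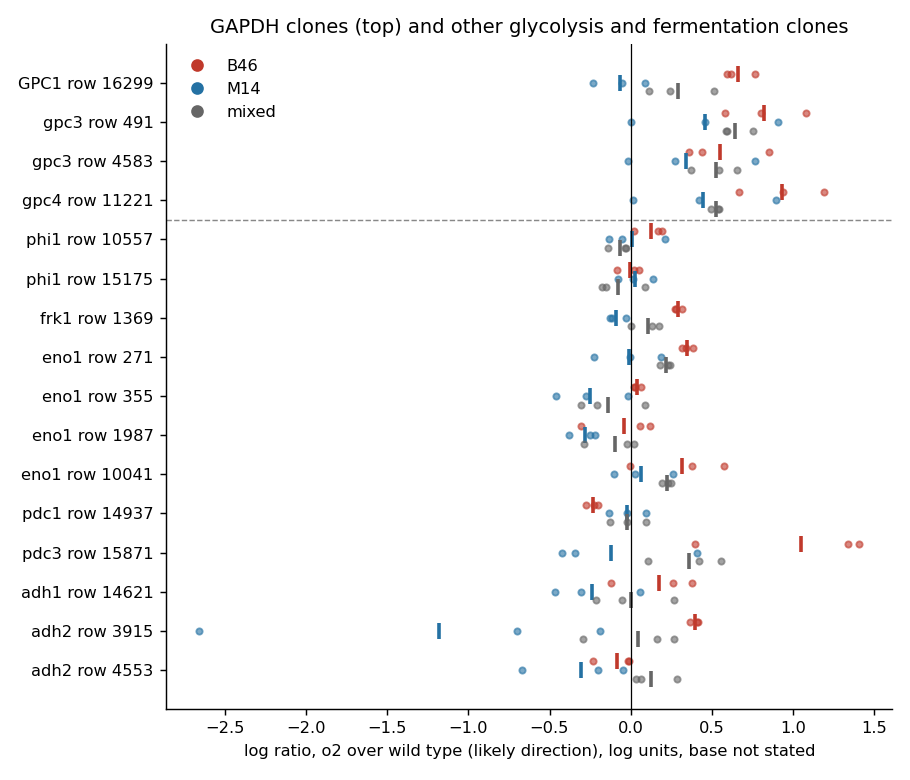
Log ratios of o2 over wild type (log units, horizontal axis) of the 4 GAPDH clones and the 12 other glycolysis and fermentation clones, with replicates as points and means as vertical bars for B46, M14 and the mixed lines. The B46 means of the GAPDH clones lie between 0.55 and 0.93, and those of the other clones between -0.23 and 1.05, with pdc3 the highest.

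The named clones whose values most resembled the mean of the 3 GAPDH genes were ranked by Pearson r over the 9 replicates among 485 other named clones, as a description. The highest were eno1 on row 271 (r = 0.92), HD2b (a plant histone deacetylase family member, r = 0.91), AGPLS3 (a large subunit of ADP-glucose pyrophosphorylase, the enzyme that makes the starch precursor, r = 0.87), eno1 on row 10041 (r = 0.86) and PDIL5-1 (a protein disulfide isomerase-like gene, r = 0.86). The other eno1 clones had r of 0.26 and 0.69. The lowest were IIG2 (r = -0.84, its other clone -0.68), gst18 (a glutathione transferase, r = -0.84, its other clone 0.39), pdk1 (r = -0.83), me2 (malic enzyme, r = -0.82) and DWF1 (r = -0.82). The median r over the named clones was 0.055, and among all 7462 other clones 9 had r over 0.9. All points share their arrays, and the samples fall into 3 comparisons, so these values carry no test.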

How the data were processed

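The table deposited by the authors holds 1 signed log ratio per array and clone, whose base is not stated. Per the labels, array images were read with ImaGene 4.1; background correction and normalization: not given in the sources used here. Of 16560 rows 14932 held values, in identical neighbouring pairs, which left 7466 clones without missing values. On each array some clones shared 1 value, and 750 clones did so on at least 1 array. Precision is limited by the number of arrays, and scanner intensities were not used here.

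Values were centred on the array's median, turned in sign and averaged with its dye-swap partner, giving 9 replicates. The fit used limma 3.58.1 (R 4.3.3) with lmFit and eBayes (1 mean per comparison, no covariates, 6 residual and 1.51 prior degrees of freedom). Clones passed at an adjusted p (Benjamini-Hochberg, all clones) under 0.05. The procedure was tested on simulated data. Gene pairs were tested with exact permutation tests, adjusted over 3 pairs.

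The platform annotation behind the gene names is old and was updated through a gene table of assembly Zm-B73-REFERENCE-NAM-5.0 that matched 360 of 370 genes. Members and lists were chosen with earlier results of these data known. Named were every GPC1, gpc3 and gpc4 clone, the list of other glycolysis and fermentation enzymes by symbol, and the 5 most and 5 least similar named clones. Alternatives were the direction by labelled dyes, centring, scaling, moderation, arrays of 1 dye orientation (also with the labels of 2 mixed replicates exchanged), a replicate block, comparisons fitted alone, and leaving out clones or replicates.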

Additional observations from a re-analysis of the deposited data

Results flagged for a closer look

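Of the 12 other glycolysis and fermentation clones and the 4 GAPDH clones, 16 in all, 48 differences between comparisons were looked at, and in 7 of them every replicate of one comparison lay on one side of 0 and every replicate of the other on the opposite side. This is 14.6% of the differences, against 3.17% over all clones, and was not tested. The 12 clones share genes and arrays. All 7 belonged to glycolysis and fermentation clones other than GAPDH, and the limma test of the difference itself passed in 0 of them. For adh2 on row 3915, B46 minus M14 was 1.58 log units (adjusted p = 0.44). For frk1, B46 minus M14 was 0.38 (adjusted p = 0.389) and M14 minus mixed was -0.20 (-0.195 before rounding, adjusted p = 0.86). For eno1 on row 355, B46 minus M14 was 0.28 (adjusted p = 0.584). For adh2 on row 4553, B46 minus mixed was -0.21 (adjusted p = 0.923) and M14 minus mixed was -0.43 (adjusted p = 0.86). For phi1 on row 10557, B46 minus mixed was 0.19 (adjusted p = 0.92).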

How the results depend on the processing

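Depth is replaced here by the number of arrays, and no signal over background was at hand. Turned by the labelled dyes, 5 clones were called in B46 and 0 in the average. The gene means in B46 were then -0.074 (GPC1), 0.048 (gpc3) and -0.018 (gpc4). They were 0.13 (GPC1) and -0.041 (gpc3) in M14, and 0.017 (0.0175 before rounding, GPC1), -0.0085 (gpc3) and 0.10 (gpc4) in the mixed lines. In the average gpc3 was -0.000391 and gpc4 0.047. B46 minus M14 became -0.20 for GPC1 (-0.199 before rounding), -0.015 for gpc3 on row 491 and -0.074 for gpc4. B46 minus mixed became -0.091 for GPC1, -0.054 for gpc3 on row 4583 and -0.12 for gpc4, and M14 minus mixed 0.11 for GPC1 and 0.18 for gpc3 on row 491. The difference of gpc3 minus GPC1 became -0.023 and that of gpc4 minus GPC1 0.024 (exact permutation test, adjusted p = 0.777 each). The correlations became -0.24 for GPC1 with gpc3 and 0.06 for gpc3 with gpc4 (0.0604).

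Without centring gpc4 was 0.58 in the mixed lines, and gpc3 on row 4583 had B46 minus mixed of -0.011. With arrays scaled to 1 spread, M14 had 40 calls (10 higher, 30 lower) and the mixed lines 58 (1 higher, 57 lower), with gpc4 at 0.59 in the mixed lines and gpc3 on row 4583 at -0.054 for B46 minus mixed. With the trend and robust options B46 had 159 calls (18 higher) and the average 249 (5 higher). With wild type on Cy5 only, M14 had 1 call, gpc4 in the mixed lines was 0.63, and gpc3 on row 4583 had B46 minus mixed of -0.029. On the arrays with o2 on Cy5, B46 had 97 calls and the average 205, gpc4 in the mixed lines was 0.42, M14 minus mixed of gpc3 on row 4583 was 0.063, gpc4 minus GPC1 was 0.32, and gpc3 with gpc4 had r = 0.65. Fitted alone, B46 had 0 calls, with 1032 clones at an unadjusted p under 0.05 in limma.

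With the labels of mixed replicates 1 and 2 exchanged (an alternative chosen after seeing the data), the values turned by the dyes gave 1 call in B46 and 0 in the average, where 2224 clones had an unadjusted p under 0.05 in limma. For the mixed lines gpc3 was then 0.12 (0.117) and gpc4 0.0919, and in the average they were 0.0413 and 0.0433. B46 minus mixed was -0.217 for GPC1, -0.145 for gpc3 on row 491 and -0.11 for gpc4. The difference of gpc3 minus GPC1 was -0.0235 and that of gpc4 minus GPC1 -0.0216, and r was -0.414 for GPC1 with gpc3 and -0.0337 for gpc3 with gpc4. So exchanged, the arrays with wild type on Cy5 gave 1086 calls in the average (435 higher, 651 lower), with gpc3 at 0.702 and gpc4 at 0.619 for the mixed lines. Those with o2 on Cy5 gave 109 calls in B46 and 179 in the average, gpc3 at 0.469 and gpc4 at 0.435 for the mixed lines, M14 minus mixed of 0.000492 for gpc3 on row 4583, gpc4 minus GPC1 of 0.361 and r = 0.713 for gpc3 with gpc4.

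With a replicate block B46 had 185 calls against 341 without it. Same-numbered replicates correlated between -0.034 and 0.10 in their deviations over all clones, with 1 of 9 pairs over 0.1, so the numbers were not taken as pairing the samples. Of these calls 25 were higher, against 68 without the block, and the higher calls in the average were 77 against 147. The GAPDH clones called in B46 were 1 of 4, against 3 of 4.

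Without M14 replicate 3 and mixed replicate 3 together, B46 had 188 calls and the average 289. B46 minus mixed was then -0.051 for gpc3 on row 4583, M14 minus mixed 0.0097 for gpc3 on row 491 and 0.12 for gpc4, and r between gpc3 and gpc4 0.80 (adjusted exact permutation p = 0.0911). Leaving out 1 replicate at a time gave between 1 (without B46 replicate 1) and 314 calls in B46, 0 to 44 in M14 (44 without M14 replicate 3), 0 to 2 in the mixed lines and 298 to 499 in the average. It gave 0 to 24 calls for B46 minus M14 and 0 to 17 for B46 minus mixed, both highest without B46 replicate 2. B46 minus mixed of gpc3 on row 4583 ran between -0.13 and 0.12, below 0 without B46 replicate 2 (-0.126) or mixed replicate 3 (-0.051). M14 minus mixed ran between -0.42 and 0.038 for gpc3 on row 491 (0.0385) and between -0.31 and 0.13 for gpc4 (0.131), above 0 without M14 replicate 3. The r of GPC1 ran between 0.043 and 0.70 with gpc3 and between 0.30 and 0.87 with gpc4, and that of gpc3 with gpc4 between 0.82 and 0.95. The alternatives for the correlations were chosen after seeing the data. Of the values recomputed, 450 main ones and 226 of single clones kept their direction and side of the threshold or moved less than the replicate spread. Of the other main ones, 55 moved further, 11 reversed, 7 became weaker and 2 stronger, and 26 of single clones reversed. Many of the kept values could not change, since leaving out a replicate keeps the means of the other comparisons, and moderation or a block alters no mean. Their count is therefore no measure of stability. The cause of the changes was not tested.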
